A study of Mus musculus with 16 samples.

Results

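The axon guidance genes described here are the ligands and receptors of the semaphorin, ephrin, Slit and netrin systems. They were chosen by name, as every non-control probe of the array whose gene name starts as a semaphorin of classes 3 to 7, a plexin, a neuropilin, an ephrin, an Eph receptor, a Robo, a Slit, a netrin, an Unc5 receptor or Dcc. The rule found 108 of 55681 probes, which carry 74 gene names, and 66 of these names passed the filter on dim probes and were tested among 19658 genes. Of the names, 3 match by their letters only, since Unc50, Unc5cl and the antisense transcript Plxna4os1 are no guidance receptors. Of these, Unc50 alone was tested, and it is counted among the 66 but belongs to none of the families below.

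Guidance cues steer the growing tips of axons and migrating cells. Semaphorins act through plexins, with neuropilins as co-receptors for most secreted class 3 semaphorins. Membrane-bound ephrins signal through Eph receptor tyrosine kinases in touching cells, Slits act through Robo receptors, and netrins attract through Dcc or repel through Unc5 receptors. The same families are used outside the nervous system, in epithelia, in vessels and at tissue boundaries of the early embryo.

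P19 cells are a mouse embryonal carcinoma line that can form neurons. They were transfected for 48 h with a control, with a mimic of the miRNA let-7a, with an siRNA against Sfpq (siSfpq), or with the mimic and siSfpq together, at 24 nM of reagent. The control and all other conditions share the same unmodified line and the transfection itself, and no genotype or strain is given in the labels. Each condition has 4 arrays, numbered replicates 1 to 4, and nothing in the labels says whether these were separate cultures, so that p-values may measure technical spread.

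The mature let-7a-5p is shown because its mimic is the reagent (sequence from RefSeq, mouse build GRCm38.p6, one of its gene copies, chr13:48538239-48538260, minus strand). The capitals mark the seed, bases 2 to 8, which pairs with CUACCUC in a target.
let-7a-5p: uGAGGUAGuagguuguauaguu
The letters CTACCTC stand in 204 of all 55681 probe sequences (0.366%) and in 0 of the 108 probes of the guidance genes, searched as written on the strand of the transcript, so that these letters are not in the stretches measured.

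Levels are log2 intensities, background-subtracted by the scanner software and quantile normalized between arrays, and differences are log2 changes with the standard error (SE) of the fit. A level of 1 probe or gene is not comparable with that of another. Arrays 1 and 2 of a condition differed from each other by an SD of 0.0350 to 0.0517, below that of spots of 1 probe within an array (0.0490 to 0.0540). The SD was 0.0839 to 0.122 between either of them and array 4, and 0.182 to 0.307 between either of them and array 3. Arrays 1 and 2 were counted as 1 sample, which leaves n = 3 per condition. They lay on 1 slide and arrays 3 and 4 on another. Array 4 nevertheless lay nearer to arrays 1 and 2 than to array 3 (0.168 to 0.281), so that n = 3 may overstate the independent samples. Samples are listed in the order replicates 1 and 2 averaged, replicate 3, replicate 4. Sfpq stood at 12.07, 11.98 and 11.98 in control and at 10.55, 11.46 and 10.62 in siSfpq, a change of -1.13 ± 0.19 (SE; adjusted p = 0.00808, limma), and its level in siSfpq replicate 3 was the highest of the 3. With let-7a and siSfpq together it stood at 11.31, 11.49 and 11.41, a change of -0.61 ± 0.19 from control (adjusted p = 0.195, limma). That was 0.52 ± 0.19 above siSfpq alone (adjusted p = 0.105, limma). On average Sfpq was thus lowered less with both. The part of this in comparisons of both with siSfpq and in the interaction was not tested. Same-numbered samples deviated together in each of the 18 pairs of samples of different conditions, so that counts are also given with the replicate as a block.

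More guidance genes were called higher than lower with let-7a, more lower than higher with siSfpq, and few in either direction when both were given. With let-7a, 8 of the 66 tested genes were higher and 1 was lower (adjusted p under 0.05), where 4.48% of all genes were called higher and 1.81% lower. With siSfpq, 1 was higher and 20 were lower, where 5.74% of all genes were called higher and 6.76% lower. Dcc is counted among the 8 and among the 20, as a mean that includes a probe kept through let-7a alone. With both against control, 1 was higher and 1 was lower (all genes 1.12% and 0.203%), and the single changes ran from -1.11 to 1.41. All samples with both lay above all control samples for 6 of the 66 genes and below them for 14, where 10.4% and 8.94% of all genes did so. The median change of the 66 genes was 0.22 with let-7a, -0.41 with siSfpq and -0.04 with both, beside medians of all genes of -0.04, 0.01 and -0.02.

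The pairwise steps between the treated conditions ran the same way. Against let-7a alone, cells with let-7a and siSfpq had 2 guidance genes higher and 5 lower, where 0.809% and 2.01% of all genes were called, and the median change was -0.38. Of the 5, Dcc and Unc5c rest on means that include a probe kept through let-7a alone, where it is high, so that the filter favoured a fall. Against siSfpq alone, cells with both had 10 higher and 1 lower, where 5.59% and 3.7% of all genes were called, and the median was 0.26. These comparisons share samples with one another and are not independent, and the mean Sfpq level was higher with both than with siSfpq alone. In the interaction, which asks whether the change with let-7a was another one once Sfpq was knocked down, 0 of the 66 genes and 0% of all genes were called (limma, with 3 guidance genes at an unadjusted p under 0.05).

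With the replicate as a block the counts of guidance genes called in either direction were larger in the pairwise comparisons, as were those of all genes. They were 17 higher and 4 lower with let-7a (20.8% of all genes called in either direction), 5 and 33 with siSfpq (36.9%), 3 and 4 with both against control (7.51%), 3 and 24 with both against let-7a (12.2%), 23 and 1 with both against siSfpq (32.4%), and 0 in the interaction (0.0203%). All 50 calls of the fit without the block were called with it as well. The calls rest on few samples, since without replicate 4, or without replicates 1 and 2, 0 guidance genes were called in any comparison, where between 0 and 3 of all genes were called. Without replicate 3, 31 of 68 tested guidance genes were called with let-7a (27.7% of all genes), 47 with siSfpq (46.6%), 25 with both against control (16.5%), 38 with both against let-7a (24.5%), 37 with both against siSfpq (44.6%) and 30 in the interaction (20.4%).

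**Figure D1:**
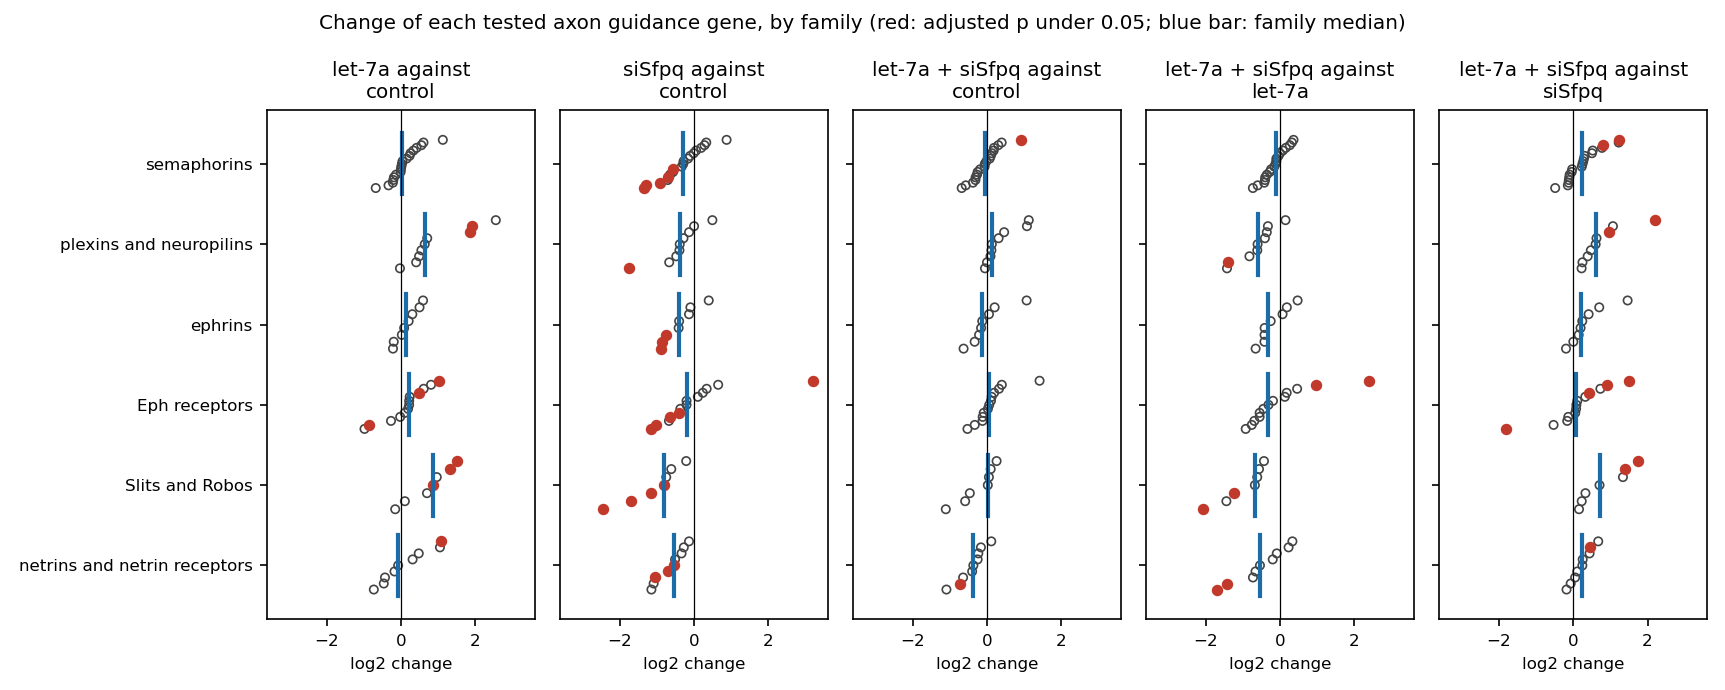
Log2 change of each of the 65 tested guidance genes (x axis) in the 5 pairwise comparisons, by family (y axis, genes spread vertically by rank), where filled red points have an adjusted p under 0.05 and blue bars are family medians. Under siSfpq the medians of all 6 families lie below 0, and under let-7a the Slits and Robos (0.87) and the plexins and neuropilins (0.64) lie highest.

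The counts and medians of the families are given as a description, and differences between families were not tested. Of all genes, 4.48% were called higher and 1.81% lower with let-7a, and 5.74% and 6.76% with siSfpq. With the block, 20.8% of all genes were called in either direction with let-7a and 36.9% with siSfpq. Some counts in these small families stand near these shares. Of 7 tested Slits and Robos, 3 rose with let-7a and 4 fell with siSfpq (4 and 6 with the block), with medians of 0.87 and -0.80. Of the 3 (Robo1, Robo2 and Slit3), Robo2 alone was called with 75th percentile scaling, without the filter on dim probes or with probes well above background on all arrays. Of 9 plexins and neuropilins, 2 rose with let-7a and 1 fell with siSfpq (medians 0.64 and -0.38), and 5 and 5 with the block. Among the 13 Eph receptors both directions occurred in each treatment, with 2 higher and 1 lower under let-7a and 1 higher and 4 lower under siSfpq. With the block these were 3 and 1, and 3 and 4. The 8 ephrins had 0 calls under let-7a and 3 lower under siSfpq, and the 19 semaphorins had 0 and 5 lower. With the block 1 ephrin was higher under let-7a, and 1 was higher and 4 were lower under siSfpq. Of the semaphorins, 2 were then higher and 1 lower under let-7a, and 1 higher and 8 lower under siSfpq. Of the 9 netrins and netrin receptors 1 was called higher with let-7a and 3 lower with siSfpq, or 0 and 2 without Dcc, which rests on a probe of repeats and a dim one. By role, 7 of 30 receptors, Dcc among them, and 1 of 35 ligands were called higher with let-7a, and 11 and 6 with the block. With siSfpq 9 receptors and 11 ligands were called lower (16 and 16 with the block), and the difference between receptors and ligands was not tested.

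**Figure D2:**
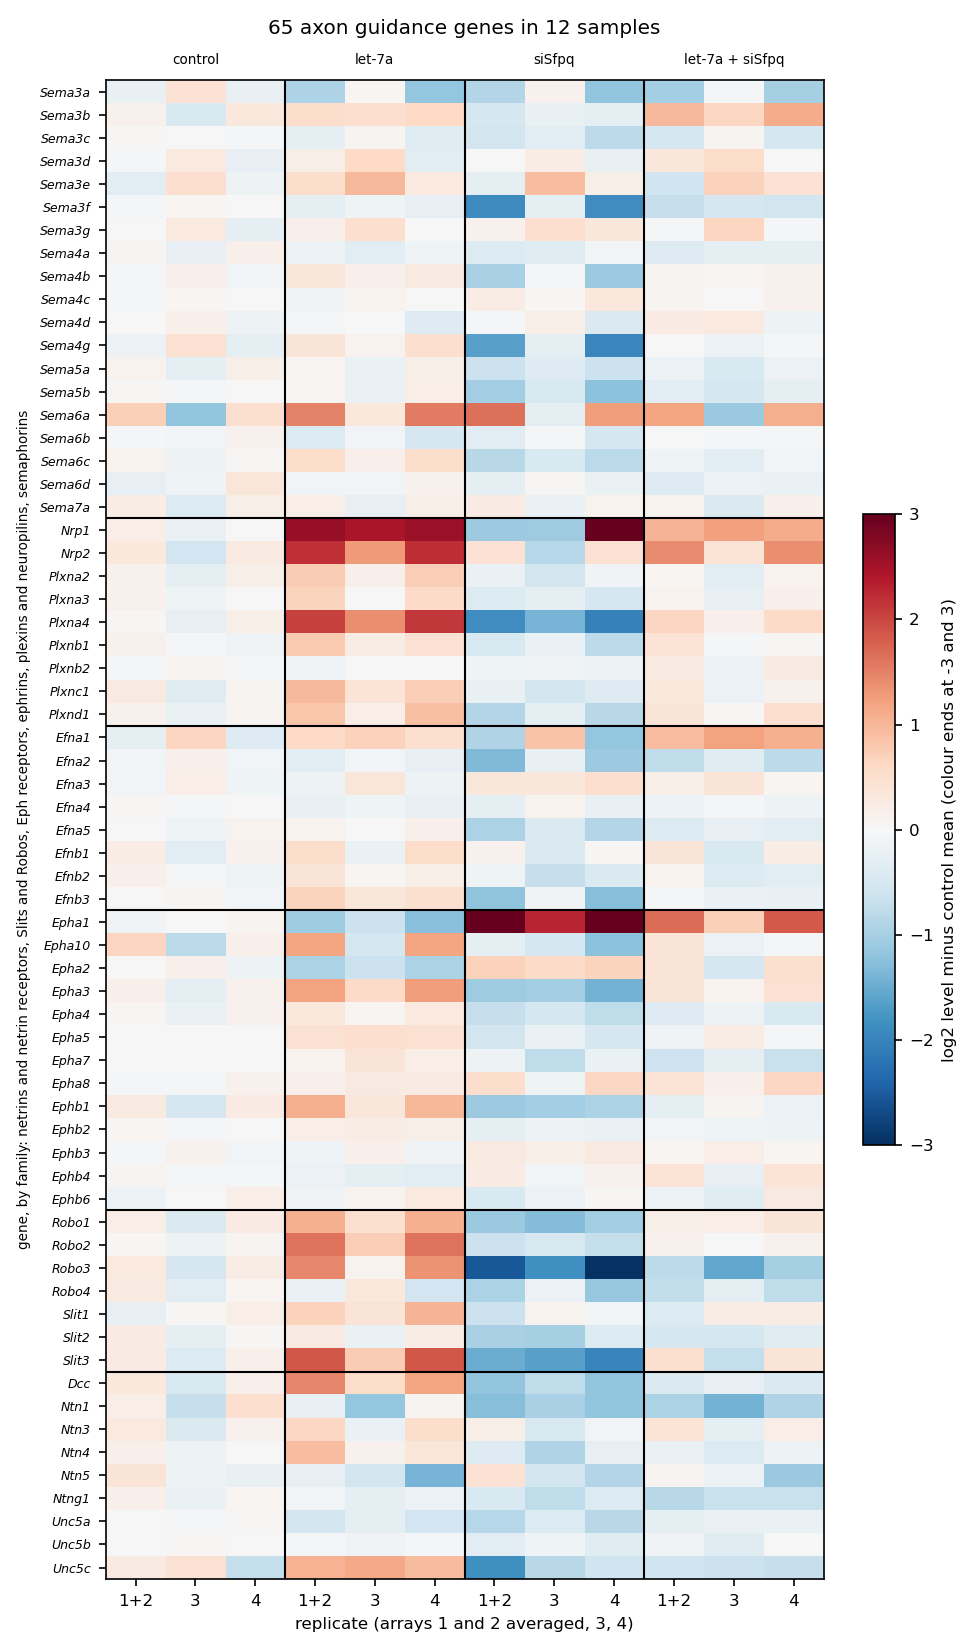
Level of 65 guidance genes (rows, by family) in the 12 samples (columns, 3 per condition), as the log2 difference from the gene's own control mean, with red above and blue below. The let-7a columns are red and the siSfpq columns blue for Slit3, Robo1 to Robo3 and Plxna4, the let-7a + siSfpq columns are paler for these genes except Robo3, and the siSfpq replicate 3 column is paler than its neighbours in many rows.

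Slit3 codes for a secreted ligand of Robo receptors. It stood at 6.76, 6.11 and 6.66 in control, 8.37, 7.27 and 8.37 in let-7a, 5.02, 4.88 and 4.54 in siSfpq, and 6.997, 5.79 and 6.89 with both. The let-7a samples lay above all control samples and the siSfpq samples below them, while the samples with both overlapped control. Slit3 rose by 1.49 ± 0.37 with let-7a (adjusted p = 0.0352) and changed by -1.70 ± 0.37 with siSfpq (adjusted p = 0.0176), and adding let-7a to siSfpq raised it by 1.75 ± 0.37 (adjusted p = 0.0193). In siSfpq it was well above background on 3 of the 4 arrays. The call with let-7a was lost with 75th percentile scaling and without the filter on dim probes, and the calls with siSfpq and with both against siSfpq were lost with normexp. Slit2, another secreted ligand, fell with siSfpq (-0.80 ± 0.21, adjusted p = 0.0353), from 6.84, 6.32 and 6.64 to 5.63, 5.60 and 6.18. That call was lost with 75th percentile scaling and without the filter on dim probes. The let-7a samples of Slit2 (6.87, 6.40 and 6.82) overlapped control. Slit1 passed the test in no pairwise comparison without the block, with 5.86, 6.14 and 6.30 in control and 6.80, 6.48 and 7.11 in let-7a (0.70 ± 0.26, adjusted p = 0.155, and 0.0268 with the block).

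Robo1 is a receptor of Slits. Its control samples stood at 7.67, 7.03 and 7.72, its let-7a samples at 8.53, 7.96 and 8.54, its siSfpq samples at 6.35, 6.18 and 6.43, and those with both at 7.65, 7.66 and 7.87. Robo1 rose with let-7a by 0.87 ± 0.21 (adjusted p = 0.0346), fell with siSfpq (-1.15 ± 0.21, adjusted p = 0.0109), and was higher with both than with siSfpq alone (1.41 ± 0.21, adjusted p = 0.00537), as the mean of 2 probes. Replicate 3 gave the same direction in these 3 comparisons. One probe was well above background on 0 of 4 siSfpq arrays and gives bounds there, at least 1.77-fold below control and at least 2.47-fold below both. The other alone gave -1.15 with siSfpq (adjusted p = 0.0125) and 1.19 with both against siSfpq (adjusted p = 0.0147) but missed the threshold with let-7a (0.62, adjusted p = 0.161).

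Robo2, the receptor most like Robo1, stood at 8.29, 8.08 and 8.31 in control and at 9.84, 8.97 and 9.85 in let-7a, 2.51-fold higher (1.33 ± 0.21, adjusted p = 0.0039). In siSfpq it stood at 7.57, 7.76 and 7.51, below every control sample, with a change that missed the threshold without the block (-0.61 ± 0.21, adjusted p = 0.0761, and 0.0265 with it). With both reagents the values 8.37, 8.24 and 8.37 lay next to control, and Robo2 was lower than with let-7a alone by -1.23 ± 0.21 (adjusted p = 0.0155).

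Robo3 codes for the receptor that lets commissural axons cross the midline. Its level was 7.16, 6.36 and 7.09 in control, 8.30, 6.99 and 8.21 in let-7a, 4.34, 5.03 and 3.90 in siSfpq, and 6.08, 5.32 and 5.88 with both. Robo3 had the strongest fall of the guidance genes with siSfpq (-2.45 ± 0.40, adjusted p = 0.00739) and with both against let-7a (-2.07 ± 0.40, adjusted p = 0.0216). Its tested probe was well above background on 2 of 4 siSfpq arrays, so that the siSfpq level is measured in part only. The let-7a samples overlapped control. Robo4, known from vessels, was lower in 2 of 3 replicates with siSfpq and was not called (-0.75 ± 0.31, adjusted p = 0.125, and 0.0423 with the block).

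**Figure D3:**
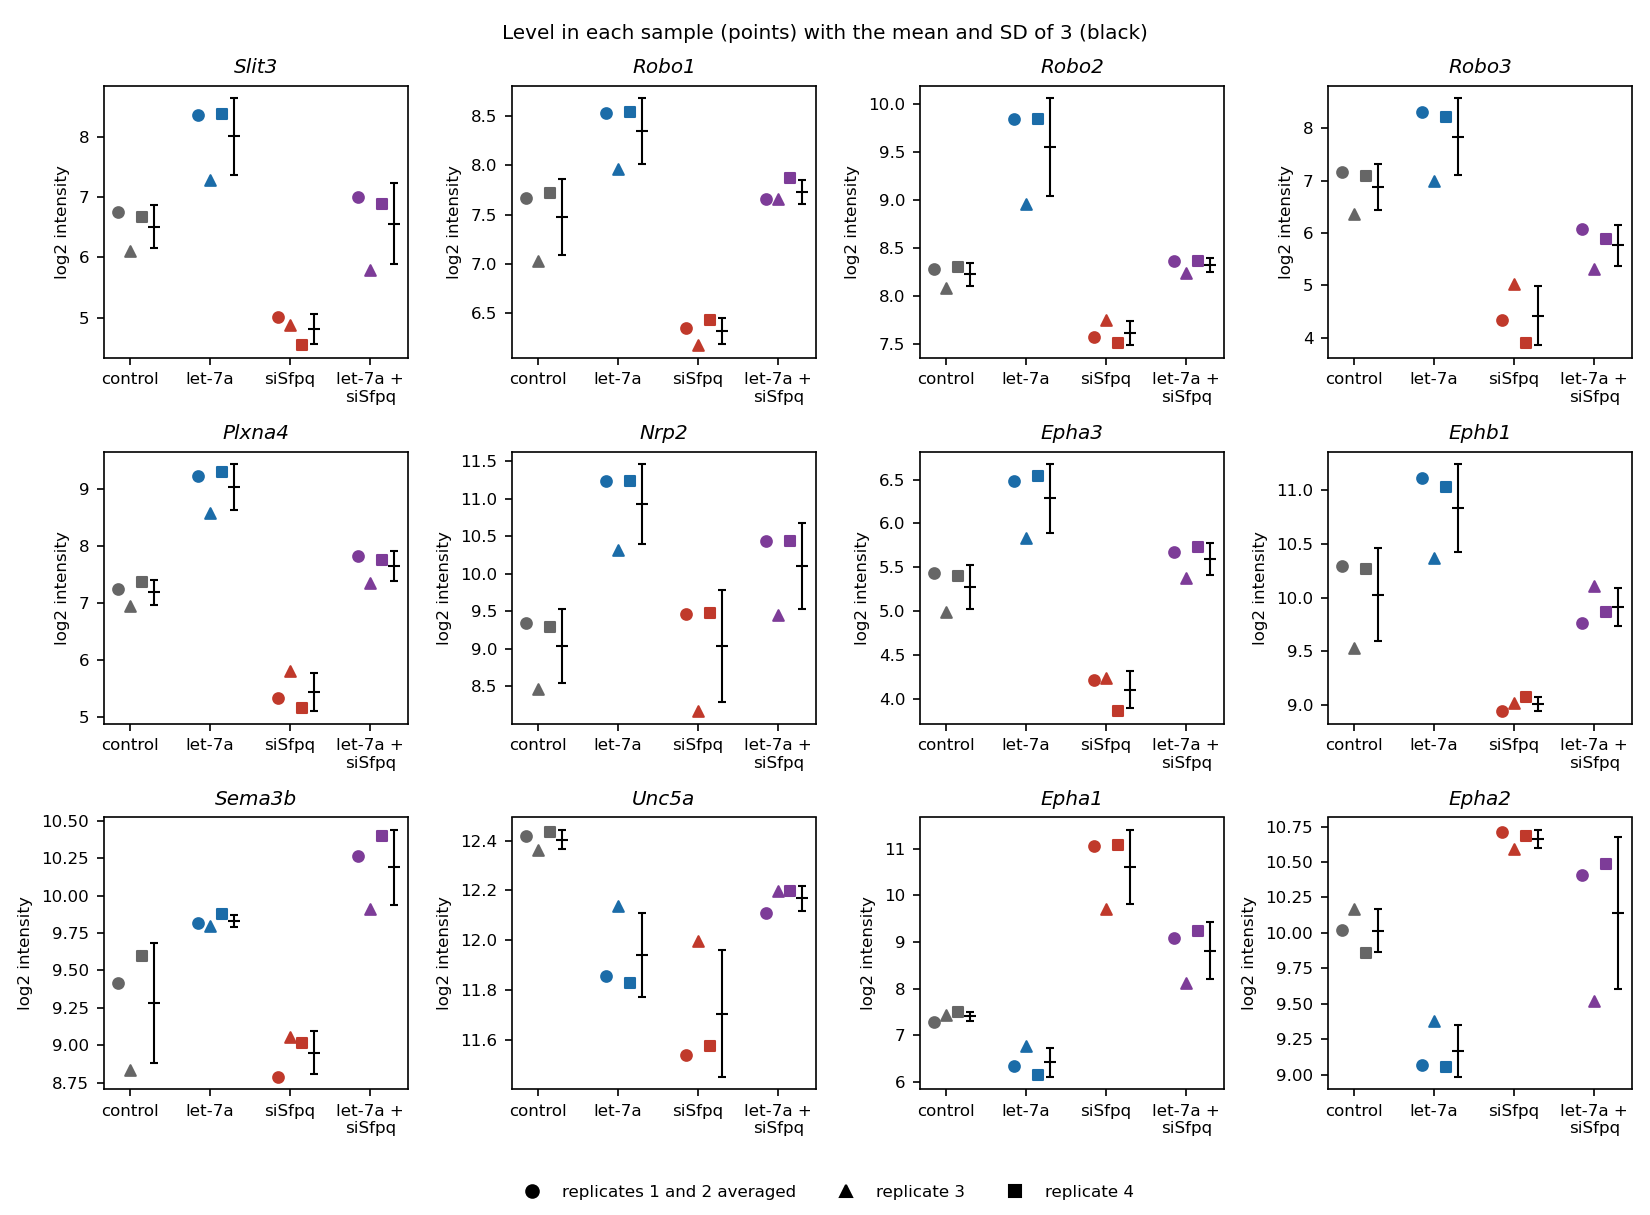
Level (log2 intensity, y axis) of 12 guidance genes in the 4 conditions (x axis), with points for the samples by replicate and, in black, the mean and SD of n = 3. For Slit3, Robo1, Robo2, Plxna4, Epha3 and Ephb1 the let-7a samples lie above and the siSfpq samples below every control sample, and for Epha1 and Epha2 the order is turned round.

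Plxna4 codes for a plexin receptor of class 3 and class 6 semaphorins. Control samples stood at 7.25, 6.95 and 7.37, let-7a samples at 9.24, 8.58 and 9.30, siSfpq samples at 5.33, 5.80 and 5.16, and samples with both at 7.83, 7.35 and 7.76. No sample of let-7a, of siSfpq or of control overlapped another of these conditions. Plxna4 rose 3.61-fold with let-7a (1.85 ± 0.24, adjusted p = 0.00143), fell to 0.296 times control with siSfpq (-1.76 ± 0.24, adjusted p = 0.00514) and, given both, was 4.64-fold above siSfpq alone (2.21 ± 0.24, adjusted p = 0.00113) and below let-7a alone (-1.39 ± 0.24, adjusted p = 0.0155). It was called in 4 of the 5 pairwise comparisons.

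Nrp2, the neuropilin co-receptor of Sema3f, depended on the replicate as well as on let-7a. It stood at 9.34, 8.47 and 9.29 in control, 11.23, 10.32 and 11.24 in let-7a, 9.46, 8.17 and 9.48 in siSfpq, and 10.44, 9.44 and 10.43 with both. Replicate 3 was about 1 log2 unit lower in each condition. Nrp2 rose with let-7a by 1.90 ± 0.41 (adjusted p = 0.0205). With the block the rise with both against control (1.07 ± 0.41) passed as well (adjusted p = 0.00053, against 0.323 without), as did that with both against siSfpq (adjusted p = 0.000424, against 0.121). Its 2 probes, which lie at mm9 chr1:62865129-62865188 and chr1:62843298-62843357, changed with let-7a by 1.62 and 2.17.

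Nrp1, the other neuropilin, was dim. It was well above background on 0 of 4 control arrays, all 4 let-7a arrays, 1 siSfpq array and 2 arrays with both, so that it passed the filter only through let-7a, where it is high. Its difference between let-7a and control is a bound of at least 2.86-fold, given without a p, and Nrp1 was not called. In siSfpq it read 1.64, 1.66 and 6.38, the last on replicate 4. The measured control mean was 2.73 and the let-7a mean 5.28.

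The other plexins moved less. Plxnd1, a receptor of Sema3e, was higher with both than with siSfpq (0.98 ± 0.22, adjusted p = 0.0236), with 10.40, 10.06 and 10.54 against 9.14, 9.74 and 9.18. Its difference between siSfpq and control was not called (-0.67 ± 0.22, adjusted p = 0.0673, and 0.0321 with the block). Plxnc1, the receptor of Sema7a, was called with the block alone, higher with let-7a (0.70 ± 0.21, adjusted p = 0.000939). Plxnb2 (14.03, 14.14 and 14.02 in control), a receptor of class 4 semaphorins, passed the test in no comparison, with or without the block. Plxna1, a semaphorin receptor well above background on 15 arrays, was not tested, since its only probe was marked as an outlier spot on 1 control array. Its other arrays read between 8.38 and 9.17 in all conditions.

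Among the semaphorins, Sema3b, a secreted class 3 ligand, was the one called higher with both reagents. Its level was 9.42, 8.83 and 9.60 in control, 9.82, 9.80 and 9.88 in let-7a, 8.79, 9.05 and 9.01 in siSfpq, and 10.26, 9.91 and 10.40 with both. It rose with both by 0.91 ± 0.19 against control (adjusted p = 0.0444) and by 1.24 ± 0.19 against siSfpq (adjusted p = 0.0054), and the samples with both lay above those of each other condition. The call against control was lost with the slide as a block and without the filter on dim probes. Its interaction was 0.69 ± 0.27 (limma's adjusted p = 0.811), positive in 2 of 3 replicates.

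Sema3f, a secreted ligand of Nrp2, read 10.11, 10.22 and 10.17 in control and 8.28, 9.87 and 8.31 in siSfpq. It fell by -1.35 ± 0.33 (adjusted p = 0.025), with replicate 3 close to control. The membrane-bound Sema4g behaved likewise, at 8.75, 9.39 and 8.66 in control and 7.31, 8.64 and 6.97 in siSfpq (-1.29 ± 0.35, adjusted p = 0.037). Sema5b (-0.91 ± 0.19, adjusted p = 0.0166), Sema6c (-0.69 ± 0.15, adjusted p = 0.0171) and Sema5a (-0.56 ± 0.15, adjusted p = 0.0331), transmembrane semaphorins, fell with siSfpq in all 3 replicates. The siSfpq replicate 3 sample, which kept more Sfpq, had the smallest fall in each of these 5 genes, and the part of the remaining Sfpq in this was not tested. Sema4b, also transmembrane, was called with both against siSfpq (0.81 ± 0.23, adjusted p = 0.0494), with a replicate 3 change of 0.12 beside 1.07 and 1.23.

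Sema6b, a transmembrane ligand of class A plexins, had an interaction of 0.61 ± 0.22 (limma's adjusted p = 0.799). It read 7.76, 7.73 and 7.92 in control, 7.39, 7.71 and 7.30 in let-7a, 7.49, 7.75 and 7.30 in siSfpq and 7.81, 7.78 and 7.77 with both, below control in the averaged arrays and replicate 4 of either single treatment and at control with both. Sema6a and Sema3a varied more by replicate than by condition. Sema6a read 6.95, 5.07 and 6.71 in control and 7.73, 6.57 and 7.80 in let-7a (1.12 ± 0.71, adjusted p = 0.443, and 0.00347 with the block). Sema3a read 6.92, 7.58 and 6.92 in control and 6.21, 7.20 and 5.97 in let-7a (-0.68 ± 0.41, adjusted p = 0.421, and 0.00722 with the block). It was likewise called lower with the block under siSfpq (adjusted p = 0.00745) and under both (adjusted p = 0.0154).

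Without the block, ephrins were called under siSfpq alone. Efna5, a ligand anchored in the membrane by GPI, stood at 13.29, 13.16 and 13.39 in control and 12.34, 12.84 and 12.41 in siSfpq (-0.75 ± 0.13, adjusted p = 0.00776). Efna2, of the same class, stood at 9.12, 9.36 and 9.12 in control and 7.88, 8.98 and 8.12 in siSfpq (-0.88 ± 0.24, adjusted p = 0.0383). Efnb3, a transmembrane ephrin of the midline, stood at 10.36, 10.45 and 10.28 in control and 9.15, 10.27 and 9.08 in siSfpq (-0.86 ± 0.25, adjusted p = 0.0454), a call lost with 75th percentile scaling, normexp, the authors' value table and no filter on dim probes. Efna1 was 1.47 ± 0.44 higher with both than with siSfpq but was called with the block alone (adjusted p = 0.00955, against 0.0564). Its siSfpq samples read 6.81, 8.55 and 6.54, replicate 3 lying above the others by more than 1 log2 unit.

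Of the Eph receptors, Epha1 had the largest rise with siSfpq. Epha1 is an epithelial Eph receptor. It stood at 7.29, 7.42 and 7.49 in control, 6.34, 6.77 and 6.16 in let-7a, 11.05, 9.70 and 11.09 in siSfpq, and 9.08, 8.12 and 9.24 with both, without overlap between any conditions. It was the one guidance gene called higher with siSfpq, 9.23-fold (3.21 ± 0.37, adjusted p = 0.00514). With both it was 5.25-fold above let-7a (2.39 ± 0.37, adjusted p = 0.0111) and lower than siSfpq by -1.80 ± 0.37 (adjusted p = 0.0179). The difference of 1.41 ± 0.37 between both and control was called with the block (adjusted p = 0.0332, against 0.108 without).

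Epha2, a receptor of epithelia and of early embryonic cells, was the one guidance gene called lower with let-7a. It read 10.02, 10.17 and 9.86 in control, 9.07, 9.38 and 9.06 in let-7a, 10.71, 10.59 and 10.68 in siSfpq, and 10.41, 9.52 and 10.48 with both. The fall with let-7a was -0.85 ± 0.22 (adjusted p = 0.0407), and with both it was 0.97 ± 0.22 above let-7a (adjusted p = 0.0391), of which replicate 3 gave 0.15 and the others 1.34 and 1.43. Its rise with siSfpq was called with the block (0.65 ± 0.22, adjusted p = 0.041, against 0.0718).

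Epha3, a receptor of A-type ephrins, ran the other way. It stood at 5.43, 4.99 and 5.40 in control, 6.48, 5.84 and 6.54 in let-7a, 4.21, 4.24 and 3.86 in siSfpq, and 5.67, 5.38 and 5.73 with both. It was well above background on 1 of 4 siSfpq arrays, so that its siSfpq level is measured in part only and the sizes of its differences from siSfpq rest on that array and on dim readings. Epha3 rose with let-7a (1.01 ± 0.24, adjusted p = 0.0293), fell with siSfpq (-1.17 ± 0.24, adjusted p = 0.0146) and was higher with both than with siSfpq (1.49 ± 0.24, adjusted p = 0.00662). It was not tested where probes had to be well above background on all arrays.

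Ephb1, a receptor of B-type ephrins, read 10.29, 9.53 and 10.27 in control, 11.11, 10.37 and 11.03 in let-7a, 8.94, 9.02 and 9.07 in siSfpq and 9.76, 10.10 and 9.86 with both. Without the block it was called neither with let-7a nor with both against let-7a. It fell with siSfpq (-1.02 ± 0.23, adjusted p = 0.0197) and was higher with both than with siSfpq (0.90 ± 0.23, adjusted p = 0.0355). Epha4, which binds ephrins of both types, fell from 9.88, 9.61 and 9.94 to 9.12, 9.29 and 9.04 with siSfpq (-0.66 ± 0.13, adjusted p = 0.0142). Ephb3, a B-type receptor at 14.33, 14.52 and 14.31 in control, rose by 0.24 ± 0.09 with siSfpq with the block alone (adjusted p = 0.0277).

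Of the 9 tested netrins and netrin receptors, 3 were called lower with siSfpq and 5 with the block, Dcc among them, and their changes ran from -1.15 to -0.14. Unc5a codes for a repulsive netrin receptor. It read 12.42, 12.36 and 12.44 in control, 11.86, 12.14 and 11.83 in let-7a, 11.54, 11.999 and 11.58 in siSfpq, and 12.11, 12.20 and 12.20 with both. Every treated sample lay below every control sample. Unc5a fell with siSfpq by -0.70 ± 0.13 (adjusted p = 0.0102), was 0.46 ± 0.13 higher with both than with siSfpq (adjusted p = 0.0448), and changed by -0.46 ± 0.13 with let-7a (adjusted p = 0.0541, and 0.0113 with the block). It had the smallest p of the guidance genes in the interaction, 0.93 ± 0.18 and positive in 3 of 3 replicates (1.13, 0.42 and 1.22), with an adjusted p of 0.633 over all genes (limma).

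Dcc, the attractive netrin receptor, read 9.91, 9.11 and 9.74 in control, 11.05, 10.14 and 10.76 in let-7a, 8.40, 8.82 and 8.40 in siSfpq, and 9.15, 9.34 and 9.16 with both, as the mean of 2 probes. The mean passed the test with let-7a, with siSfpq and with both against let-7a, and is counted among the calls above, but it includes a probe that was kept through let-7a alone, so that its sizes and p-values are not given. These 3 calls were lost with normexp, with the authors' value table, without the filter on dim probes, with probes well above background on all arrays and with the brightest probe. One is a run of 51 bases of repeated GAA among its 60 and is placed by the file on chromosome 7, away from the gene, and it changed by 0.21 with let-7a and -0.63 with siSfpq. The other was well above background on all 4 let-7a arrays, 1 control array and 0 arrays of siSfpq or of both. It thus passed the filter only through let-7a, where it is high. It was at least 3.80-fold lower with both than with let-7a (measured means of 2.85 and 5.18), a difference given without a p, and its change with siSfpq was not measured.

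Ntng1, a netrin-like protein anchored in the membrane by GPI, was the one guidance gene called lower with both reagents. It read 8.26, 7.93 and 8.17 in control, 7.66, 7.35 and 7.72 in siSfpq, and 7.28, 7.46 and 7.46 with both. It was called with siSfpq (-0.54 ± 0.15, adjusted p = 0.0355) and with both against control (-0.72 ± 0.15, adjusted p = 0.0399), where the call was lost with the 75th percentile, normexp, the brightest probe and no filter on dim probes. Ntn1, the founding secreted netrin, read 8.64, 7.74 and 8.93 in control, 7.16, 7.46 and 7.25 in siSfpq and 7.48, 7.01 and 7.54 with both. It missed the threshold in siSfpq (-1.15 ± 0.34, adjusted p = 0.0505) and passed with the block there (adjusted p = 0.00834) and with both against control (-1.09 ± 0.34, adjusted p = 0.0271). Unc5c, a repulsive receptor well above background on 2 of 4 siSfpq arrays, was called lower with both than with let-7a as the mean of 2 probes, at 3.80, 3.75 and 3.71 against 5.44, 5.54 and 5.35. Of its 2 probes 1 was well above background on 0 arrays of control and of both, so that it passed the filter only through let-7a, and it was at least 2.29-fold lower with both than with let-7a (measured means of 2.73 and 4.45). The other probe alone was not called (-1.66, adjusted p = 0.145).

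Probes mattered beyond Dcc. Of the 66 tested genes 24 rest on several probes, and the probes of 6 of them, dim ones included, had opposite signs with let-7a and of 7 with siSfpq. Epha5, a receptor of A-type ephrins that was called as a mean of 3 probes with let-7a (0.47 ± 0.12, adjusted p = 0.0393), siSfpq (-0.41 ± 0.12, adjusted p = 0.0454) and both against siSfpq (0.43 ± 0.12, adjusted p = 0.0452), is the clearest case. Its probe at mm9 chr5:84487348-84487407 changed by -0.02 and 0.22 with let-7a and siSfpq, that at chr5:84494886-84494945 by 0.85 and -0.26, and that at chr5:84483837-84483896 by 0.59 and -1.19. Plxna2, another plexin, has a probe at mm9 chr1:196642958-196643017 that changed by 1.09 with let-7a and by -0.77 with siSfpq, and a probe placed on chromosome 13 that changed by 0.00 and 0.20. One of 3 Robo2 probes changed by 0.01 with siSfpq and the others by -0.87 and -0.98. The probes of Sema6c changed by -0.26 and -1.13 with siSfpq. Those of Unc5c were each well above background on 1 of 4 siSfpq arrays.

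**Figure D4:**
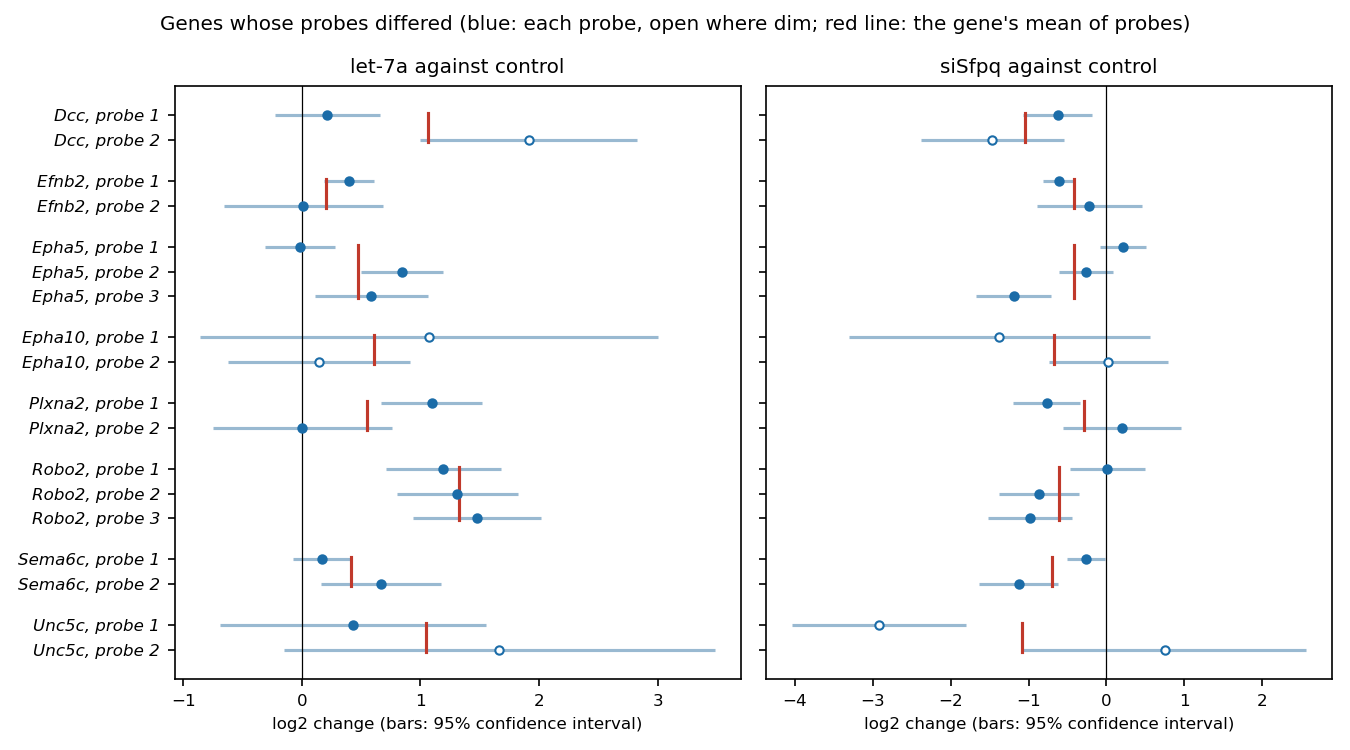
Log2 change with let-7a (left) and siSfpq (right) of each probe (points, with 95% confidence intervals from limma) of 8 guidance genes with unlike probes, where red lines are the means of the probes that the gene values use and open points are probes that were dim on at least 1 array of the conditions compared, drawn at their readings. The repeat probe of Dcc (probe 1) and probe 1 of Epha5 lie near 0 with let-7a, away from the other probes of the same gene.

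Guidance genes with an Ago2 peak specific to let-7a transfection in the 3' untranslated region were read as a list of their own. They were taken from a supplementary peak table of sites that depend on Sfpq, 4 with a binding site of Sfpq close by and 3 with one farther away. Such a peak need not hold a match to the seed. The paper names the genes whose close peak holds a canonical let-7a site, and none of the 4 is among them. The question was whether they were lower with let-7a. Of the 4 with a close site (Sema4c, Epha4, Efna5 and Efnb2) 0 were called with let-7a, with changes of 0.00, 0.22, 0.08 and 0.20, and 0 with the block. The brighter of the 2 Efnb2 probes, fitted alone, was called higher (0.40, adjusted p = 0.0385). Their 95% confidence intervals were -0.19 to 0.19 for Sema4c, -0.07 to 0.51 for Epha4, -0.19 to 0.36 for Efna5 and -0.18 to 0.59 for Efnb2. Of the 3 with a far site (Plxnb2, Sema7a and Plxna3) 0 were called, with changes of -0.03, 0.04 and 0.41. With siSfpq 2 of the 4 close genes were called lower, and with both against let-7a 0 were called without the block and 3 lower with it (median -0.42). In the interaction the 7 genes lay between -0.16 and 0.33, with 0 called.

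The genes that work beside these families were read from 2 lists. Of 22 tested other cue and adhesion genes (23 listed, among them L1 and contactin adhesion molecules, Flrt proteins and netrin co-receptors), 7 rose and 0 fell with let-7a and 0 rose and 6 fell with siSfpq, with medians of 0.57 and -0.43. With the block these counts were 10 and 3 with let-7a and 2 and 11 with siSfpq. Of all genes, 4.48% rose and 1.81% fell with let-7a, and 5.74% and 6.76% with siSfpq. With the block, 20.8% of all genes were called in either direction with let-7a and 36.9% with siSfpq. Dscaml1 (2.84 ± 0.63, adjusted p = 0.0222), Chl1 (2.03 ± 0.27, adjusted p = 0.00177) and Flrt1 (1.30 ± 0.28, adjusted p = 0.0187), cell-surface adhesion proteins, had the largest rises with let-7a. Dscaml1 (-2.40), Cntn2 (-2.07) and Chl1 (-1.33) had the largest falls with siSfpq. With both against control 0 of the 22 were called, and 1 rose and 1 fell with the block. Of 48 intracellular transducers, 5 rose and 0 fell with let-7a, and 2 rose and 10 fell with siSfpq (medians 0.05 and -0.18), against 10 and 1 and 6 and 20 with the block. The block's 11 of 48 calls with let-7a stand near the share of all genes (20.8%). Dpysl3, a collapsin response mediator, rose with let-7a by 1.28 ± 0.17 (adjusted p = 0.00199), Mical2, a redox enzyme that acts on actin, by 1.11 ± 0.29 (adjusted p = 0.0466), and the kinase Fes by 0.76 ± 0.16 (adjusted p = 0.0173). Srgap3, a GTPase-activating partner of Robo, had the largest fall with siSfpq (-1.66 ± 0.36, adjusted p = 0.0177), and Trim67 rose (1.72 ± 0.35, adjusted p = 0.0146).

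Neuron markers moved with the guidance genes. All 12 were well above background on all 16 arrays, 8 rose and 0 fell with let-7a, 0 rose and 8 fell with siSfpq, and 0 were called with both against control (9 and 0, 0 and 8, and 1 higher with the block). Their summed linear level ran from 42790 to 50350 in control, 57600 to 77070 in let-7a, 23740 to 32940 in siSfpq and 36620 to 39120 with both. Of 10 embryonal markers, of which 9 were tested, 3 fell with let-7a, and 3 rose and 1 fell with siSfpq. Their summed level was 62310 to 72110 in control, 41200 to 56700 in let-7a, 73110 to 83480 in siSfpq and 56720 to 62300 with both. Of 5 tested mesendoderm markers 2 fell and 0 rose with let-7a, with changes from -2.29 to 1.22, and 1 rose with siSfpq (1 rose and 2 fell with let-7a and 3 rose with siSfpq with the block). Their summed level, to which the brightest genes add most, was 1505 to 2031 in control, 575.2 to 586.4 in let-7a, 3554 to 6967 in siSfpq and 904.4 to 1929 with both. Of 3 tested endothelial markers 1 rose with let-7a and 1 fell with siSfpq, where 1 rose as well with the block (summed levels 553.5 to 623.3 in control, 768.1 to 860.2 in let-7a, 612.7 to 708.6 in siSfpq and 683.3 to 806.8 with both). Of 5 glial markers (2564 to 3840, 2551 to 4949, 1988 to 2658 and 2360 to 4288) and 5 primitive endoderm markers (3293 to 4034, 4201 to 4564, 3234 to 3540 and 4210 to 4901) 0 were called with either reagent without the block. With it, 1 glial marker rose with let-7a and 1 fell with siSfpq, and 2 primitive endoderm markers rose with let-7a and 1 rose and 1 fell with siSfpq. Cdh5 and Sox17, which define endothelium and endoderm, were well above background on 0 arrays. The part of cell type in the changes of the guidance genes was not tested, and in bulk RNA fewer cells of a type and less RNA per cell cannot be told apart.

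Of the names, 8 were not tested, Plxna1 among them. Unc5d and Unc5cl were well above background on 0 of the 16 arrays, and Epha6, Ntng2, Plxna4os1, Plxnb3 and Sema4f on 1 to 8 arrays, never on all 4 of a condition. Plxnb3 was well above background on 3 let-7a arrays and on no other.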

How the data were processed

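Total RNA of 16 samples of P19 cells was labelled with Cy3 and hybridized to 1-colour Agilent mouse arrays of 59305 spots. The authors deposited scanner intensities of each spot, made with Agilent Feature Extraction 10.7.3.1, which are background-subtracted and not normalized between arrays, and processed log2 values of each probe, which the methods describe as limma quantile normalized. These log2 values follow the median spot intensity and were used as an alternative. Between 33733 and 38464 spots per array were well above background, and the number of arrays limits the precision.

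For the main values, processed intensities were put on the log2 scale and quantile normalized with limma 3.58.1 in R 4.3.3, with the data.table package 1.17.8. Outlier-marked spots were dropped, and repeated spots of a probe were averaged. A probe was kept where at least 1 condition had it well above background on each of its 4 arrays, and kept probes of a gene were averaged. Probes named only by a genomic region or as lincRNA were left out. Names were updated through RefSeq accessions (28026 of 55681 probes, 97 of the 108 probes of the guidance genes, 0 of which changed name). Probe positions are those of the file, mm9.

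Arrays 1 and 2 of a condition were averaged, which left 12 samples. A single limma model with an intensity trend held all 4 conditions, tests were two-sided, and a call is an adjusted p (Benjamini-Hochberg, over all 19658 genes) under 0.05. An exact permutation test of 3 against 3 samples cannot give a p below 0.1. The labels give all conditions the replicate numbers 1 to 4, and the deviations from the condition means of same-numbered samples correlated over genes by 0.292 to 0.713 in 18 pairs, so that the numbers were taken as pairs and the fit with the replicate as a block is given as counts for all guidance genes and for the lists, and for guidance genes named singly. The blocked fit was otherwise an alternative, beside those of the closing section. Reagents at 24 nM and 48 h are from the methods, which name 3 replicates, whereas 4 were analysed.

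Named are guidance genes called in a comparison, those with an unadjusted p under 0.05 in the interaction, those with listed Ago2 sites, those not well above background, and up to 3 called rises and falls of the cue and transducer lists, and guidance genes named outside this rule were chosen after their values were seen. The members and lists were chosen with earlier results of these data known. The fit was tested on simulated data. Figures were drawn in Python with matplotlib.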

Additional observations from a re-analysis of the deposited data

How the results depend on the processing

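The counts of called guidance genes (9 with let-7a, 21 with siSfpq, 2 with both against control, 7 with both against let-7a, 11 with both against siSfpq and 0 in the interaction) moved with the samples that entered the fit, and the cause was not tested. In that order they were 24, 39, 7, 26, 30 and 1 with all 16 arrays as separate samples (3671, 6812, 1411, 2598, 6117 and 155 of all 19658 genes) and 21, 38, 7, 27, 24 and 0 with the replicate block. Leaving out samples gave ranges of 0 to 31, 0 to 47, 0 to 25, 0 to 38, 0 to 37 and 0 to 30, with 0 without replicate 4 or without replicates 1 and 2, which leave 2 samples per condition, and the highest values without replicate 3, where 5559, 9370, 3325, 4921, 8974 and 4102 of all 20100 genes were called. Without the filter on dim probes, which brings more genes into the test, the pairwise counts were 4, 11, 0, 2 and 6 of 73 guidance genes (992, 1339, 168, 262 and 861 of all 30104). With scaling to the 75th percentile 5 genes were called with let-7a (1091 of all genes) and 1 with both against control (208). Probes well above background on all arrays gave 5 of 58 with let-7a (970 of all 17616 genes) and 4 with both against let-7a (410). The slide as a block, normexp or the brightest probe of a gene gave 1 with both against control, which lost Sema3b with the slide and Ntng1 with the others and with the 75th percentile. Other counts stayed within 1.5 times those reported, also without Unc50, Unc5cl and Plxna4os1 and without Dcc (8, 20, 2, 6, 11 and 0), which were tried after seeing the data, as were probes fitted alone.

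Of the 50 calls, 50 held with 16 arrays and 50 with the block, 49 with the slide, 43 with the authors' value table, 40 with the 75th percentile, 40 with normexp, 39 with the brightest probe and 23 without the filter. Without the filter, calls of Dcc, Epha2, Nrp2, Robo1 and Slit3 were lost with let-7a. With siSfpq those of Dcc, Efna2, Efnb3, Epha5, Ntng1, Robo3, Sema3f, Sema4g, Sema5a and Slit2 were lost. Both against let-7a lost Dcc, Epha2, Plxna4, Robo3 and Unc5c, and both against siSfpq lost Epha5, Ephb1, Plxnd1, Sema4b and Unc5a. With probes well above background on all arrays 41 could be tested and 36 held, and calls of Dcc, Epha3, Robo1, Robo3, Slit3, Unc5c and Sema4b were lost. Epha5, the one called gene that turned, changed with its brightest probe, the first of its 3 probes, by -0.017 with let-7a, 0.216 with siSfpq and -0.129 with both against siSfpq. Among the other changes recomputed (calls, genes with Ago2 sites and interactions at an unadjusted p under 0.05), signs turned in uncalled differences. With the 75th percentile these were Efna5 with let-7a (-0.0018) and Plxnb2 with siSfpq (0.0365). With the authors' value table they were Plxna3 with both against control (0.0091), Sema4c with let-7a (0.0044) and Sema7a with let-7a (-0.0016). The interaction of Efnb2 was 0.021 with normexp, 0.0243 with the value table and 0.119 with its brightest probe, and its other probe gave -0.120 with both against siSfpq. Leaving out samples gave -0.0962 to 0.0999 for that interaction, -0.0744 to 0.0385 for that of Plxna3, -0.0724 to 0.0575 for Plxna3 with both against control (0.0090 without replicates 1 and 2), -0.0299 to 0.0247 for Sema4c with let-7a, and -0.0171 to 0.0820 for Sema7a with let-7a (0.0581 without replicate 4) and -0.0263 to 0.116 for Sema7a with siSfpq. The median change of the guidance genes kept its sign in all 6 comparisons under these settings. Genes with a siSfpq level near background, such as Slit3, Robo3, Epha3, Unc5c and Dcc, are limited by the signal there.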
